A study of Mus musculus with 12 samples.

Results

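The genes described here are 10 transcription factors that build the heart and set the identity of its chambers: Gata4, Nkx2-5, Tbx5, Tbx20, Mef2c, Hand2, Irx4, Hey2, Nr2f1 and Nr2f2. They were chosen by name as 10 of the 31722 gene symbols in the deposited table, and all 10 had a row. The hearts came from C57BL/6J mice, 6 in a Control group and 6 in a group given carbon tetrachloride (CCl4), a liver toxin used here to model liver cirrhosis and its effect on the heart. Each library holds the messenger RNA of the heart tissue of 1 mouse, and the labels give no sex, age, dose, time or chamber. Levels are RPKM, in which a gene's reads are divided by its length and by the total of its library. Because whole tissue was sequenced, fewer cells of a type and less RNA per cell cannot be told apart.

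The core factors act together: GATA4 (a zinc finger protein), NKX2-5 (a homeobox protein), TBX5 (a T-box protein) and MEF2C (a MADS-box protein) bind near one another at genes of the contractile apparatus, ion channels and natriuretic peptides and raise their transcription. Chamber identity rests on another layer. IRX4 and HEY2 are kept to the ventricle and repress atrial genes there, TBX5 is most abundant in the atria of the adult heart, and the nuclear receptors NR2F1 and NR2F2 (COUP-TFI and COUP-TFII) direct atrial identity.

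Of the 9 members tested, 0 passed the test between CCl4 and Control hearts, as did 0.0% of all 14087 genes tested, and the clearest pattern among the members was the split of Tbx5 by atrial transcripts. These differed widely between hearts, led by Myl7, the atrial myosin light chain. Myl7 lay at 140.7 RPKM or more in 5 hearts (Control replicates 1, 2, 3 and 5, and CCl4 replicate 4) and at 28.7 RPKM or less in the other 7, with no heart near the split at 100 RPKM. Since 4 Control hearts but 1 CCl4 heart were above that split, atrial transcripts were not balanced between the groups.

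Over the 12 hearts the members differed in level by more than an order of magnitude per length. All exons together span 2351 bases in Hand2 and 2607 in Irx4 but 11997 in Tbx20 and 15715 in Mef2c. The order given here is therefore one of RPKM and need not be that of transcript numbers. Hand2 led with a mean of 24.8 ± 4.09 RPKM (SD, n = 12), followed by Irx4 at 8.24 ± 1.46 RPKM. Hand2 was above Irx4 in 12 of 12 hearts, and the ranges of both genes did not overlap. A middle group held Nr2f2 at 4.97 ± 1.16, Tbx5 at 4.34 ± 2.88, Nkx2-5 at 3.53 ± 0.490 and Gata4 at 3.21 ± 0.554 RPKM. Within it Nr2f2 was above Tbx5 in 8 hearts and Tbx5 above Nkx2-5 in 6, and both orders went with Myl7. In hearts with Myl7 under 100 RPKM every Nr2f2 value (3.65 RPKM or more) lay above every Tbx5 value (2.81 or less). In hearts above 100 RPKM every Tbx5 value (4.52 or more) lay above every Nkx2-5 value (3.86 or less). Nkx2-5 exceeded Gata4 in 9 hearts, also with overlapping ranges. Mef2c averaged 2.08 ± 0.333 RPKM, and Tbx20 (1.24 ± 0.652) and Hey2 (1.24 ± 0.229) had nearly the same mean. Nr2f1 was the lowest at 0.399 ± 0.132 RPKM, and Hey2 was above it in every heart.

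The members also differed in how far they varied from heart to heart. Tbx5 spanned 5.40-fold from the lowest to the highest heart and Tbx20 4.96-fold, while the other 8 spanned 1.59-fold to 2.85-fold. Of all genes tested, 98.4% had a smaller SD of log2(RPKM + 1) than Tbx5 and 89.3% a smaller one than Tbx20. For Hey2 that share was 24.4%.

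**Figure D1:**
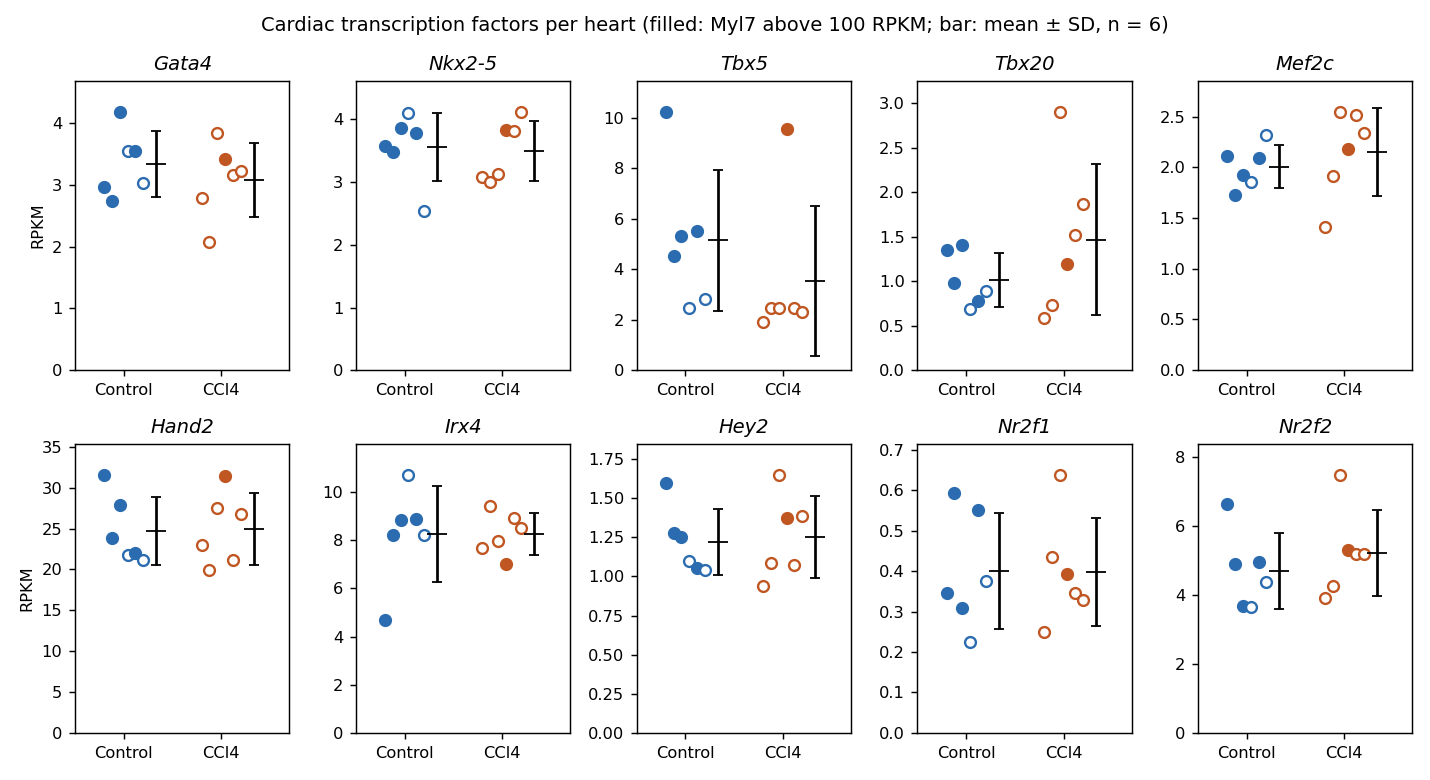
RPKM (vertical axis) of each of the 10 factors in the 6 Control and 6 CCl4 hearts, with 1 point per heart and bars for the mean ± SD (n = 6). Filled points are hearts with Myl7 above 100 RPKM; the filled Tbx5 points lie at 4.52 RPKM or more and the open ones at 2.81 RPKM or less, and Tbx20 reaches 2.90 RPKM in 1 CCl4 heart.

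Tbx5 (ENSMUSG00000018263, chr5:119832668-119885219, plus strand of GRCm38) encodes the T-box factor whose loss causes atrial septal and conduction defects. In Control hearts it ran from 2.47 RPKM through a median of 4.92 to 10.2 RPKM. In CCl4 hearts it ran from 1.89 through 2.46 to 9.57 RPKM. The groups overlapped: 5 CCl4 hearts lay under the Control median, and CCl4 replicate 4 lay far above the other 5.

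Control hearts averaged 5.15 ± 2.80 RPKM of Tbx5 and CCl4 hearts 3.53 ± 2.97 (SD, n = 6 each). The log2 fold change, taken as the CCl4 mean less the Control mean of log2(RPKM + 1), was -0.50 (SE 0.33, 95% interval -1.20 to 0.20, limma adjusted p = 0.629), so the difference was within the spread of the hearts. It moved to 0.12 (limma adjusted p = 0.901) with the Myl7 class as a covariate, and to -0.13 (limma adjusted p = 1.0) among the 7 hearts with Myl7 under 100 RPKM. The class above the split held 1 CCl4 heart, replicate 4 at 9.57 RPKM of Tbx5, so the positive sign with the covariate rests on that heart. Over all alternatives other than leaving out 1 heart the limma adjusted p of Tbx5 ran from 0.192 to 1.0.

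By Myl7, Tbx5 split cleanly. In the 5 hearts with Myl7 above 100 RPKM it ran from 4.52 through a median of 5.53 to 10.2 RPKM, and in the 7 others from 1.89 through 2.47 to 2.81 RPKM, a ratio of medians of 2.24. Tbx5 was the only tested member whose values did not overlap between these classes. Of the 14087 genes tested, 97 (0.689%) were higher in every heart above the split and 1 (0.0071%) was lower in every such heart. Because the classes come from a measured gene, no test was made. Among the hearts under the split, the 2 Control hearts had 2.47 and 2.81 RPKM of Tbx5 and the 5 CCl4 hearts 1.89 to 2.48 RPKM.

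The order within the upper class followed Myl7 at its ends. Control replicate 1, with the most Myl7 (419.2 RPKM), had the most Tbx5 (10.2 RPKM), and CCl4 replicate 4, next with 306.6 RPKM of Myl7, had 9.57 RPKM. Control replicates 2, 3 and 5, at 140.7 to 180.6 RPKM of Myl7, had 4.52, 5.32 and 5.53 RPKM of Tbx5.

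Other transcripts split the same way. Of the 8 tested atrial markers other than Myl7, which defines the classes, 4 did not overlap between them: Stard10, Kcnj3, Myl4, the atrial essential light chain (102.7 to 391.4 against 0.993 to 33.1 RPKM) and Sln, the atrial calcium pump inhibitor sarcolipin (7.87 to 37.6 against 0.0605 to 1.75 RPKM). None of the 5 ventricular markers did so. Both tested adipocyte markers also split, and the 4 adipocyte markers summed to 6.34 to 21.9 RPKM above and 0.349 to 1.65 RPKM under the split. Their part in the Tbx5 result was not tested.

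Irx4 (ENSMUSG00000021604, chr13:73260479-73269608, plus strand), the ventricular Iroquois homeobox factor, had 4.67, 8.51 and 10.7 RPKM as its lowest, median and highest Control value. The CCl4 values were 6.99, 8.22 and 9.43 RPKM. All CCl4 hearts lay within the Control range. Means were 8.25 ± 1.98 RPKM in Control mice and 8.24 ± 0.879 RPKM after CCl4 (SD, n = 6 each), with a log2 fold change of 0.03 (SE 0.14, 95% interval -0.28 to 0.34, limma adjusted p = 0.966).

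The lowest Irx4 values sat in the hearts with the most Myl7, 4.67 RPKM in Control replicate 1 and 6.99 RPKM in CCl4 replicate 4. The class ranges overlapped, however, at 4.67 to 8.88 RPKM above the split and 7.68 to 10.7 RPKM under it. The ratio of Tbx5 to Irx4 RPKM did not overlap between the classes: it ran from 0.230 to 0.343 in the 7 hearts under the split, was 0.551, 0.603 and 0.623 in Control replicates 2, 3 and 5, and reached 1.37 in CCl4 replicate 4 and 2.19 in Control replicate 1. Across the 12 hearts Tbx5 and Irx4 had a Pearson r of -0.65 on the log2(RPKM + 1) scale, given as a description only.

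**Figure D2:**
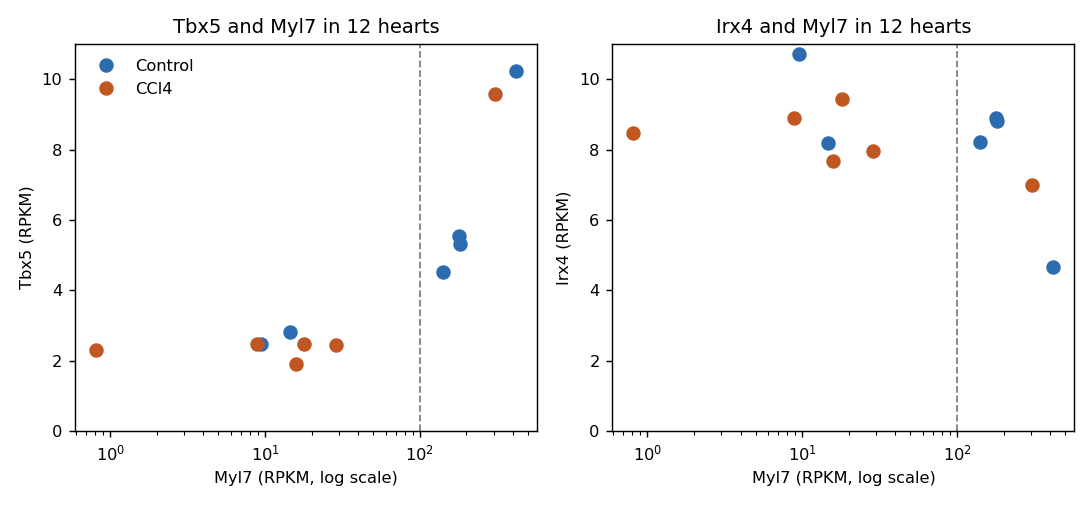
Tbx5 (left) and Irx4 (right) in RPKM against Myl7 in RPKM on a log axis, with 1 point per heart, blue for Control and orange for CCl4, and a dashed line at 100 RPKM of Myl7. Tbx5 lies between 1.89 and 2.81 RPKM left of the line and between 4.52 and 10.2 RPKM right of it, while the 2 hearts with the most Myl7 hold the lowest Irx4 values, 4.67 and 6.99 RPKM.

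By the likeness rule (highest Pearson r over the 12 hearts among 9598 genes), the genes most like Tbx5 were Fgf12, an intracellular modulator of sodium channels (r = 0.978), and Sbk2, a kinase gene (r = 0.977). Fgf12 ran from 1.27 to 5.56 RPKM in hearts above the Myl7 split and from 0.0390 to 0.556 RPKM under it. Sbk2 ran from 2.26 to 9.92 and from 0.409 to 0.854 RPKM. The same 5 and 7 hearts underlie each r.

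Promoters were read for motifs of these factor families because Tbx5 moved with Myl7, Fgf12 and Sbk2 while Hand2 and Irx4 had their extreme values in the same hearts, and because Nppa, atrial natriuretic peptide, is a textbook target of TBX5, NKX2-5 and GATA4. RefSeq sequences of GRCm38.p6 were available for 8 of the 10 members. Each line gives the 250 bases before 1 transcription start, 5′ to 3′ on the gene's strand, with capitals for matches on either strand to AGGTGT (T-box), to AGATAA with T also allowed as the first and G as the last letter (GATA) and to TNAAGTG (NK2, the family of NKX2-5).
Nppa, chr4:148000472-148000721, plus strand: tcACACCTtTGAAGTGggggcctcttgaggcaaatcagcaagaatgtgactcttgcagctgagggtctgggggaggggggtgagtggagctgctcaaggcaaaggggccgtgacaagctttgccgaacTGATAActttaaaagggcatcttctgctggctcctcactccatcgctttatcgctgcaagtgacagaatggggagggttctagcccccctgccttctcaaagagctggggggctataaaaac
Myl7, chr11:5898783-5899032, minus strand: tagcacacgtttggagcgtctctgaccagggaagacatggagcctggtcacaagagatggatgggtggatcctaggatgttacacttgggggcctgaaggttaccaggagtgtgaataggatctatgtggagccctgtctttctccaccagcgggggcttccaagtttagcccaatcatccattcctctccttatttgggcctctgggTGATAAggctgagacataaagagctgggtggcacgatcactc
Fgf12, chr16:28446076-28446325, minus strand: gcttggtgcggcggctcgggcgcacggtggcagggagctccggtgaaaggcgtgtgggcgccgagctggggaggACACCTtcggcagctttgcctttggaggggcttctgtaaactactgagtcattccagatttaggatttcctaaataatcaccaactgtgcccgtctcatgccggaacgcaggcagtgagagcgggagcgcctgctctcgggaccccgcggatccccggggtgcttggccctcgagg
Sbk2, chr7:4964407-4964656, minus strand: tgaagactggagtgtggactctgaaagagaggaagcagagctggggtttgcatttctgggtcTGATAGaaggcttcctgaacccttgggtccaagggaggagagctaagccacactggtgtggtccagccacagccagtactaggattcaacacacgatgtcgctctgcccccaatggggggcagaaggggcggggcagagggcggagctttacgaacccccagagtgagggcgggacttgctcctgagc
Hand2, chr8:57320733-57320982, plus strand: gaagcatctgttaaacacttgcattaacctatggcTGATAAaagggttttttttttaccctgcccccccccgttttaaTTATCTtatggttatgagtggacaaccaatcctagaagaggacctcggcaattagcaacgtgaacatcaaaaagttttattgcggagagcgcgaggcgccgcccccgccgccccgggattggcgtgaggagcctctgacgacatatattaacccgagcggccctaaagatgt
Irx4, chr13:73260247-73260496, plus strand: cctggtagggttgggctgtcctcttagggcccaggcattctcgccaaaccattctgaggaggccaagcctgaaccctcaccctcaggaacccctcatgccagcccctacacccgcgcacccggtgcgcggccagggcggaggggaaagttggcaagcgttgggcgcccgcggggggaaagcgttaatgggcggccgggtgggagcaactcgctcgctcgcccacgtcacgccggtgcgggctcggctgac
In the Nppa promoter the T-box match began 248, the NK2 match 241 and the GATA match 122 bases before the start, and none overlapped another. The Myl7 promoter held a GATA match 42 bases before the start, 1 of 4 Fgf12 starts, the one shown, a T-box match at 176, Sbk2 a GATA match at 188 and Hand2 GATA matches at 215 and 172. Irx4 held none of them. Myl4, which also split by Myl7, held none either, and 1 of 2 starts of the ventricular gene Myl2 held a GATA match. Over 32851 RefSeq promoter windows of the same length, T-box matches stood in 11.8%, GATA matches in 26.5% and NK2 matches in 10.1%, so single matches are common. Of the members' windows, Nr2f2 had 1 GATA match and 1 of 3 Mef2c starts 1 T-box match, and AGGTCA, the core bound by COUP-TF receptors, was found at 2 Mef2c starts and in 14.0% of all windows. A match is a run of letters and not evidence of binding.

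Hand2 (ENSMUSG00000038193, chr8:57320983-57324633, plus strand), a basic helix-loop-helix factor of the developing ventricle and of the epicardial lineage, was the highest member by RPKM. Its Control values ran from 21.2 through 22.9 to 31.6 RPKM and its CCl4 values from 19.9 through 24.9 to 31.5 RPKM. The groups overlapped almost fully, and the highest heart of each group was its richest in Myl7. The log2 fold change was 0.01 (SE 0.13, 95% interval -0.27 to 0.29, limma adjusted p = 0.980), with 4 of 6 CCl4 hearts above the Control median. Hand2 and Irx4 ran in opposite directions across hearts (r = -0.70, description only, n = 12). The antisense gene Hand2os1 overlaps 461 exon bases (19.6%) of Hand2, and without a stated strand setting reads in those bases cannot be assigned to either gene.

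Gata4 (ENSMUSG00000021944, chr14:63198922-63271692, minus strand) lay at 2.73, 3.29 and 4.18 RPKM (lowest, median, highest) in Control and at 2.08, 3.19 and 3.84 RPKM in CCl4 hearts. Its 4 CCl4 hearts under the Control median and 2 above it left the groups intermixed. Its log2 fold change was -0.09 (SE 0.11, 95% interval -0.33 to 0.15, limma adjusted p = 0.833).

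Nkx2-5 (ENSMUSG00000015579, chr17:26838664-26845009, minus strand) lay at 2.54, 3.68 and 4.10 RPKM in Control and at 3.01, 3.48 and 4.12 RPKM in CCl4 hearts. CCl4 hearts were divided, 3 above and 3 under the Control median. The log2 fold change was -0.02 (SE 0.10, 95% interval -0.23 to 0.20, limma adjusted p = 0.973), and its sign changed with the scaling.

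Mef2c (ENSMUSG00000005583, chr13:83504034-83667080, plus strand) had Control values of 1.73, 2.00 and 2.32 RPKM and CCl4 values of 1.41, 2.26 and 2.55 RPKM. By RPKM, CCl4 replicate 1 was lowest of all hearts and 3 other CCl4 hearts were highest, so the CCl4 range enclosed the Control range. It still did with median-of-ratios scaling of the libraries, but the order of the hearts changed. CCl4 replicate 3, highest by RPKM, then lay at 2.10, under Control replicate 6 at 2.42. On the log2 scale the fold change was 0.06 (SE 0.10, 95% interval -0.15 to 0.27, limma adjusted p = 0.877). Of the intervals of Gata4, Nkx2-5 and Mef2c, none reached past -0.33 or 0.27 on that scale.

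Tbx20 (ENSMUSG00000031965, chr9:24718138-24774303, minus strand), a T-box factor needed for adult cardiomyocyte function and for the endocardial cushions, lay at 0.682, 0.931 and 1.41 RPKM in Control hearts. In CCl4 hearts it lay at 0.584, 1.36 and 2.90 RPKM. The CCl4 range enclosed the Control range: replicates 1 and 2 were at 0.584 and 0.727 RPKM, and replicates 3, 5 and 6 at 2.90, 1.52 and 1.87 RPKM, above every Control heart. With median-of-ratios scaling of the libraries it did not: replicates 1 and 2 lay at 0.681 and 0.926, and the lowest Control heart at 0.656. Replicates 3, 5 and 6 stayed above every Control heart. Mitochondrial genes made up 42.3% and 45.7% of CCl4 replicates 1 and 2, against 31.1% to 39.7% of the other libraries. Their part in these values was not tested.

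Means were 1.01 ± 0.299 RPKM of Tbx20 in Control mice and 1.46 ± 0.851 RPKM after CCl4 (SD, n = 6 each). Its log2 fold change was 0.24 (SE 0.19, 95% interval -0.17 to 0.64, limma adjusted p = 0.703). It lay at 0.09 (limma adjusted p = 0.789) without CCl4 replicate 3, and at 0.38 (limma adjusted p = 0.0436) when limma weighted each library by its quality. With those array weights 1 of the 9 tested members passed, beside 16.0% of all genes tested (5.47% higher and 10.5% lower in CCl4 hearts). Of the settings run, that was the only one in which any member passed, and the limma adjusted p of Tbx20 under the others reached 1.0.

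Tbx20 and fibroblast markers varied together across the hearts. This relation was chosen after the values were seen, so its p-values describe these hearts and are no independent support, and their adjustment covers the 10 members but not the other marker lists. The 7 fibroblast markers summed to 88.8 to 238.8 RPKM in Control hearts and 97.5 to 592.9 RPKM in CCl4 hearts, with CCl4 replicate 3 highest and replicates 6 (347.9) and 5 (282.7) next. Tbx20 had a Pearson r of 0.955 with that sum (both log2, n = 12; permutation p = 1e-05, the smallest that 100000 permutations can give; adjusted p = 0.0001 over 10 members) and a Spearman rho of 0.923 (permutation p = 4e-05, adjusted p = 0.0004). Without the 2 hearts farthest from the median, CCl4 replicates 3 and 6, r was 0.876. Within Control hearts r was 0.832 and within CCl4 hearts 0.997 (6 each). Within Control hearts Irx4 (-0.941), Hand2 (0.906), Tbx5 (0.878) and Hey2 (0.862) had a larger r than Tbx20 in size, where in CCl4 hearts they had -0.03, 0.456, -0.02 and 0.844. Control replicate 1 had the highest fibroblast sum of the Control hearts (238.8 RPKM) and also the most Myl7 (419.2 RPKM). It had the most Tbx5, Hand2 and Hey2 and the least Irx4 of them as well. Fibroblast and atrial markers thus rose in the same Control heart, and its part in the r within Control hearts was not tested. Over the 12 hearts, 0.831% of all genes tested had an r at least as high as that of Tbx20.

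Nr2f2 (ENSMUSG00000030551, chr7:70351944-70366735, minus strand), a nuclear receptor of atrial muscle and of venous endothelium, ran from 3.65 through 4.65 to 6.65 RPKM in Control and from 3.92 through 5.20 to 7.50 RPKM in CCl4 hearts. The groups overlapped, with 4 CCl4 hearts above the Control median. The log2 fold change was 0.13 (SE 0.14, 95% interval -0.19 to 0.44, limma adjusted p = 0.815). Its highest values were in CCl4 replicate 3 (7.50 RPKM) and Control replicate 1 (6.65 RPKM). By Myl7 class Nr2f2 overlapped, at 3.69 to 6.65 RPKM above the split and 3.65 to 7.50 RPKM under it. With the fibroblast sum Nr2f2 had an r of 0.816 (n = 12; permutation p = 0.00135, adjusted p = 0.00675), a rho of 0.762 (permutation p = 0.0056, adjusted p = 0.0187) and an r of 0.721 without CCl4 replicates 3 and 6. An r at least as high was found for 9.08% of all genes tested. The antisense gene B130024G19Rik (mean 0.412 RPKM) shares 643 exon bases (7.46%) with Nr2f2, and reads in those bases cannot be assigned to either gene.

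Nr2f1 (ENSMUSG00000069171, chr13:78188973-78199757, minus strand), the other COUP-TF receptor, lay at 0.224, 0.36 and 0.594 RPKM in Control and at 0.250, 0.369 and 0.638 RPKM in CCl4 hearts. The 2 ranges nearly coincided. By Myl7 class Nr2f1 overlapped too, at 0.309 to 0.594 RPKM above the split and 0.224 to 0.638 RPKM under it. It reached the expression minimum of 0.5 RPKM in 3 libraries and was left out of the fit across genes. Means were 0.400 ± 0.143 and 0.398 ± 0.133 RPKM (SD, n = 6 each), and an exact two-sided permutation test over 924 splits gave p = 0.998 where the smallest possible is 0.00216. The antisense gene A830082K12Rik (mean 0.375 RPKM) shares 123 exon bases (2.42%) with it.

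Hey2 (ENSMUSG00000019789, chr10:30832359-30842801, minus strand), a repressor downstream of Notch in the compact ventricular wall, lay at 1.04, 1.18 and 1.60 RPKM in Control and at 0.937, 1.23 and 1.65 RPKM in CCl4 hearts. The groups overlapped, with 3 CCl4 hearts above the Control median. Its log2 fold change was 0.02 (SE 0.09, 95% interval -0.18 to 0.21, limma adjusted p = 0.966). By Myl7 class Hey2 overlapped, at 1.05 to 1.60 RPKM above the split and 0.937 to 1.65 RPKM under it. Its median was not lower above the split (1.28 RPKM) than under it (1.09 RPKM), and its r with Irx4 over the 12 hearts was -0.57, given as a description.

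Over the 12 hearts Hey2 and Mef2c had a smaller r with the fibroblast sum than Tbx20. Mef2c had an r of 0.754 (n = 12; permutation p = 0.00443, adjusted p = 0.0131) and a rho of 0.832 (permutation p = 0.00134, adjusted p = 0.0067). Hey2 had an r of 0.750 (permutation p = 0.00525, adjusted p = 0.0131) and a rho of 0.671 whose adjusted p was 0.0518 by permutation. Without CCl4 replicates 3 and 6 the r was 0.677 for Mef2c and 0.556 for Hey2. An r at least as high was common, found for 14.2% of all genes tested in the case of Mef2c and 14.7% in that of Hey2. Under median-of-ratios scaling of the libraries r was 0.944 for Tbx20, 0.658 for Nr2f2, 0.522 for Hey2 and 0.457 for Mef2c. The other 6 members had adjusted permutation p of 0.171 to 0.987 over the 12 hearts.

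The 3 CCl4 hearts with Tbx20 above every Control heart also had the most macrophage transcripts. The 5 macrophage markers summed to 75.1, 40.9 and 32.3 RPKM in CCl4 replicates 3, 6 and 5, against 15.0 to 20.7 RPKM in Control hearts. CCl4 replicate 3 also had the lowest sum of the 7 cardiomyocyte markers, 16956 RPKM. The part of these cells in the values of Tbx20, Nr2f2, Mef2c and Hey2 was not tested.

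**Figure D3:**
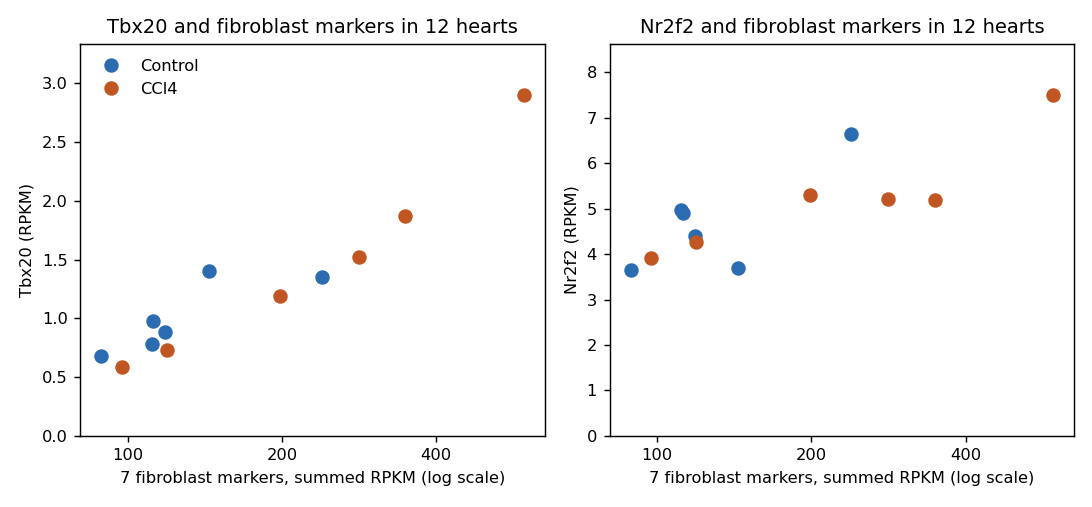
Tbx20 (left) and Nr2f2 (right) in RPKM against the summed RPKM of 7 fibroblast markers on a log axis, with 1 point per heart, blue for Control and orange for CCl4. Both are highest in the heart with the highest sum (592.9 RPKM), and the Tbx20 points lie close to 1 curve (r = 0.955) while the Nr2f2 points scatter more (r = 0.816).

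Among pairs of members the highest correlations were Hand2 with Hey2 (r = 0.81), Tbx20 with Hey2 and Hey2 with Nr2f2 (0.78 each), Tbx20 with Nr2f2 (0.73) and Tbx20 with Mef2c (0.72), all over 12 hearts and given as a description. By the likeness rule, Tbx20 was most like Ikbip (r = 0.979) and Nfix, a nuclear factor I gene (0.976). Nr2f2 was most like Ntn4, a netrin of basement membranes (0.960), and Timp3, a matrix metalloproteinase inhibitor (0.954). Hey2 was most like Igfbp3 (0.947) and Abhd4 (0.942), and Mef2c most like Zfp991 (0.925) and Prkra (0.920).

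Gata4 was most like Slmap, a sarcolemma-associated protein gene (0.963), and Msantd3 (0.960). Nkx2-5 came closest to Palld, which encodes the actin-binding protein palladin (0.880), and Afg3l2, a mitochondrial protease subunit (0.873). Hand2 paired with Slco3a1 (0.930) and Rnf141 (0.923), Irx4 with Tnfaip8 (0.796) and Eif4ebp3 (0.783), and Nr2f1 with Spata24 (0.829) and C7 (0.789). Irx4 and Nr2f1 thus had the weakest partners. Each partner was picked as 1 of the 2 highest r among 9598 genes (9599 for Nr2f1) over 12 hearts. Such a pick can be high without any relation. No chance level was worked out, so all partners by the likeness rule are given as a description.

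In the treatment comparison the members were near the background of all genes. Of the 9 tested members 6 had a positive and 3 a negative log2 fold change, with a median of 0.02 (3 positive and 6 negative with TPM scaling). None passed an adjusted p of 0.05 in limma and none an unadjusted p of 0.05. Of all 14087 genes tested, 0.0% passed after adjustment (smallest limma adjusted p = 0.0731), 10.2% had an unadjusted p under 0.05, and the median log2 fold change was -0.05. No member had Control and CCl4 values that did not overlap, where 0.76% of all genes did. With 9 members, counts of 0 are close to these shares and are no result about the members. The 95% intervals of all 9 members included 0 and the widest, that of Tbx5, ran from -1.20 to 0.20.

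**Figure D4:**
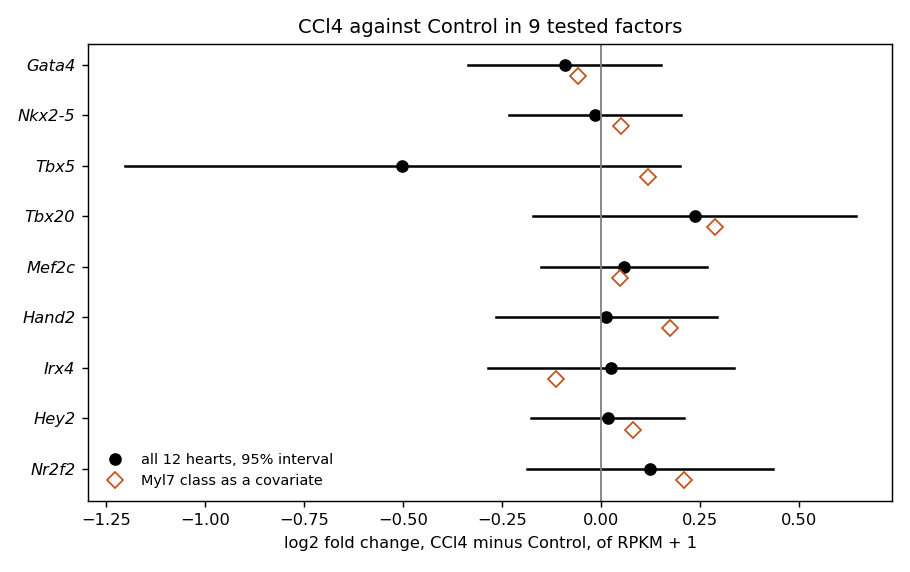
Log2 fold change, CCl4 minus Control, of RPKM + 1 (horizontal axis) for the 9 tested factors, with black points for all 12 hearts, lines for the 95% interval and open diamonds for the fit with the Myl7 class as a covariate. Every interval includes 0, and the Tbx5 value lies at -0.50 without and 0.12 with the covariate. The class above 100 RPKM of Myl7 holds 1 CCl4 heart.

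Partners and relatives of the members formed a list of 48 symbols of other cardiac factors, of which 44 had a row and 36 were tested. Mkl1 and Mkl2, both tested, were also listed as Mrtfa and Mrtfb, symbols without a row. None passed after adjustment in limma. At an unadjusted p under 0.05, 7 were lower and 0 higher in CCl4 hearts, beside 8.58% of all genes lower and 1.60% higher. In all, 15 had a positive and 21 a negative log2 fold change, with a median of -0.04. The split depended on the scaling: with median-of-ratios scaling 4 were lower and 3 higher, beside 5.61% and 5.50% of all genes. With array weights 7 (2 higher, 5 lower) passed after adjustment in limma, beside 16.0% of all genes, and without Control replicate 1 Tbx3 did (log2 fold change -0.56, limma adjusted p = 0.0334).

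Tbx3, the T-box repressor of the conduction system, was at the top of that list by its p. It lay at 1.11, 1.83 and 2.15 RPKM in Control and at 0.727, 0.990 and 1.25 RPKM in CCl4 hearts. The groups overlapped only because of Control replicate 1, the heart richest in Myl7. Means were 1.77 ± 0.404 and 0.966 ± 0.198 RPKM (SD, n = 6 each), and 6 of 6 CCl4 hearts lay under the Control median. The log2 fold change was -0.49 (SE 0.11, limma adjusted p = 0.154), between -0.45 and -0.60 under the other scalings, and -0.59 (limma adjusted p = 0.122) with the Myl7 class as a covariate.

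Hey1, a Notch-responsive repressor related to Hey2, averaged 3.99 ± 0.645 RPKM in Control mice and 2.74 ± 0.411 RPKM after CCl4 (log2 fold change -0.41, limma adjusted p = 0.214). Zfpm1, the GATA cofactor FOG1, averaged 4.33 ± 0.395 and 3.28 ± 0.715 RPKM (-0.33, limma adjusted p = 0.350). Tead4, a DNA-binding partner of YAP, averaged 0.801 ± 0.160 and 0.580 ± 0.0981 RPKM (-0.19, limma adjusted p = 0.376). In each of these 3 genes 6 of 6 CCl4 hearts lay under the Control median, and their log2 fold changes were negative under every scaling run.

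The remaining genes of the 7, named after their values were seen, were Mef2d, Mef2a and Myocd. Mef2d and Mef2a are paralogs of Mef2c, and Myocd encodes myocardin, the coactivator of SRF. Mef2d averaged 11.7 ± 1.43 RPKM in Control mice and 9.94 ± 0.782 RPKM after CCl4 (log2 fold change -0.21, limma adjusted p = 0.430). Mef2a averaged 5.47 ± 0.427 and 4.72 ± 0.418 RPKM (-0.18, limma adjusted p = 0.434), and Myocd 1.48 ± 0.172 and 1.23 ± 0.117 RPKM (-0.15, limma adjusted p = 0.469). All 3 had an unadjusted limma p above 0.05 with median-of-ratios scaling. Gata6, the paralog of Gata4, lay at 3.36 ± 0.591 and 3.44 ± 0.665 RPKM.

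Several marker lists had lower values in CCl4 hearts alongside these genes. Among all 14087 genes tested, 9262 had a negative log2 fold change and 8.58% were lower at an unadjusted limma p under 0.05. These lists were counted on the deposited RPKM only. All 7 endothelial markers had a negative log2 fold change and 6 an unadjusted limma p under 0.05, and they summed to 153.4 to 186.5 RPKM in Control and 98.3 to 148.2 RPKM in CCl4 hearts. All 5 smooth muscle markers were negative, 2 of them at an unadjusted limma p under 0.05, with sums of 151.0 to 288.7 and 121.6 to 223.7 RPKM. All 6 mesothelial markers were negative, 1 at that level (Wt1), with sums of 4.59 to 17.6 and 0.639 to 17.0 RPKM. Of 6 arterial endothelial markers 2 were lower at that level (sums 19.2 to 24.3 and 15.0 to 25.5 RPKM), as were 3 of 8 venous, endocardial and lymphatic markers (43.0 to 69.3 and 24.0 to 63.2 RPKM). CCl4 and Control values did not overlap for Wt1 and for 2 endothelial markers, Tie1 and Esam, as for 0.76% of all genes. The part of these cell types in the values of Hey1 and the others was not tested.

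**Figure D5:**
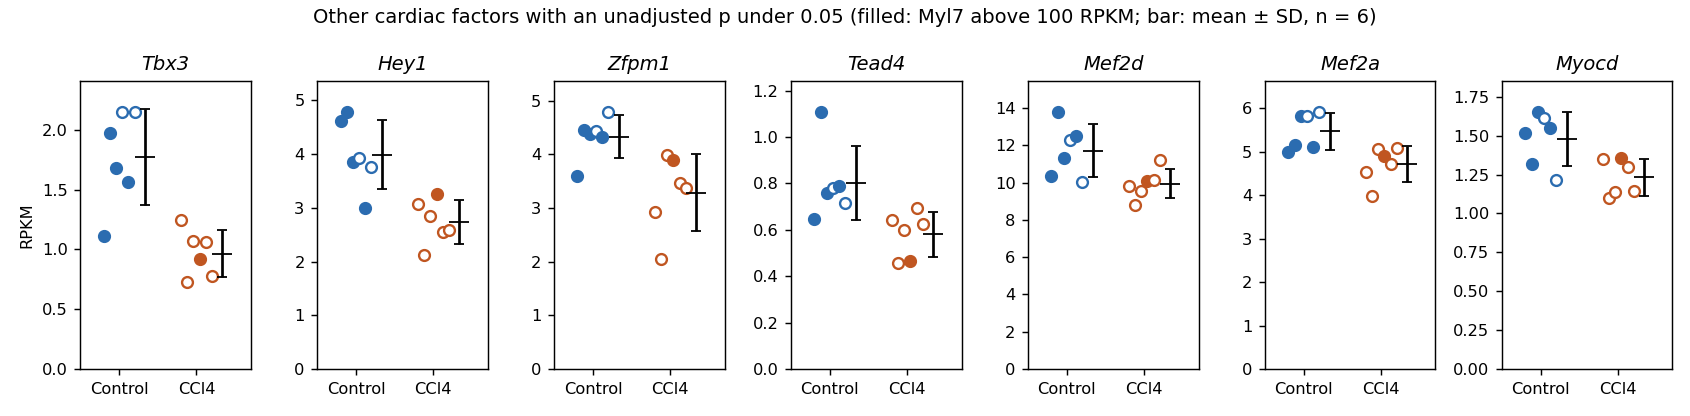
RPKM (vertical axis) of the 7 other cardiac factors with an unadjusted limma p under 0.05, in 6 Control and 6 CCl4 hearts, with 1 point per heart, filled where Myl7 was above 100 RPKM, and bars for the mean ± SD. Every CCl4 point of Tbx3 lies at 1.25 RPKM or less, and 5 of the 6 Control points lie above all of them.

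Genes known as direct targets of the members were a list of 26, of which 25 were tested. None passed after adjustment in limma, and 1 was higher and 4 lower at an unadjusted p under 0.05 (1.60% and 8.58% of all genes), with 9 positive and 16 negative values and a median log2 fold change of -0.12. Tnnc1, cardiac troponin C, averaged 3122 ± 494 RPKM in Control mice and 2365 ± 432 RPKM after CCl4 (-0.40, limma adjusted p = 0.346). Tnni3, cardiac troponin I, averaged 3691 ± 408 and 2911 ± 644 RPKM (-0.37, limma adjusted p = 0.404). Atp2a2, the calcium pump SERCA2, averaged 194 ± 43.3 and 138 ± 61.9 RPKM (-0.57, limma adjusted p = 0.456).

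The target higher in CCl4 hearts was Cacna1c, the pore of the L-type calcium channel, at 4.83 ± 0.571 against 6.02 ± 0.963 RPKM (log2 fold change 0.26, limma adjusted p = 0.402). With array weights 6 targets (2 higher, 4 lower) passed after adjustment in limma, beside 16.0% of all genes. With median-of-ratios scaling 0 targets were lower and 2 higher at an unadjusted p under 0.05. By Myl7 class 2 of the 25 did not overlap, both higher above the split, beside 0.689% of all genes tested. They are Kcnj3, which is also on the atrial marker list, and Gja5, which is also on the arterial endothelial one. Kcnj3, the atrial potassium channel GIRK1, ran from 42.8 to 102.7 RPKM above the split and from 9.14 to 24.5 RPKM under it. Gja5, the atrial and conduction connexin, ran from 0.990 to 1.65 and from 0.505 to 0.831 RPKM. Of the 36 other factors 1 did so, Smarcd3, the BAF60c subunit that links TBX5 and GATA4 to chromatin, at 8.70 to 10.1 against 7.27 to 8.51 RPKM. Gja5 and Smarcd3 were singled out after their values were seen.

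Of the defining markers of other tissues and cell types, the 3 liver markers summed to at most 0.643 RPKM and the 3 lung markers to at most 0.189 RPKM in any heart, and Isl1, a marker of the sinus node, lay under 0.1 RPKM in all 12. Cardiomyocyte markers summed to 16956 to 29390 RPKM. Between CCl4 and Control no marker passed after adjustment: at an unadjusted limma p under 0.05, 2 of 7 cardiomyocyte, 1 of 6 conduction (Tbx3), 1 of 9 atrial and 0 of 5 ventricular markers were lower, 2 of 7 fibroblast markers were higher and 0 of 5 macrophage markers were past it in either direction. At that level 8.58% of all genes were lower and 1.60% higher, so counts of 0 or 1 in lists this short are no result about those cells. The relative depth of the libraries, recovered from the steps of the low values, ran from 26351344 to 63370755 steps, and the members rested on 50 to 156 steps (Nr2f1) up to 1311 to 4691 steps (Hand2) per library.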

How the data were processed

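Hearts of 12 mice, 6 Control and 6 CCl4, were grouped and numbered by their sample titles. TRIzol extraction and a stranded messenger RNA kit were used, per the labels' protocols. Per the submitters' processing notes, Trimmomatic 0.36, featureCounts of Subread 1.5.1 and GRCm38 were used. For the aligner, annotation release and strand setting, values are not given in the sources used here. RPKM values were deposited by the authors. Exon lengths from GENCODE M21 (30196 symbols, 95.2%, with 1 gene model) gave the step that 1 read adds to each gene. Of low values, 92.7% to 93.9% lay within 0.05 step of a whole number (10% by chance) and 70.3% to 73.9% were even, so depths are relative and no count test was run.

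Genes reaching 0.5 RPKM in 6 or more libraries (14087) were tested with limma 3.58.1 in R 4.3.3, a trend fit to log2(RPKM + 1) with no covariate and Benjamini-Hochberg adjustment over all of them at 0.05. This scale understates the change of low genes. P-values refer to the spread between these mice. Figures and ranges used Python 3.11.15. The script was tested on simulated data.

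The members and lists were chosen with earlier results of these data known. Named are all 10 members, up to 4 genes with the smallest p per list, Myl7, and the 2 genes most correlated with each member among tested genes of at least 1 RPKM with a descriptive symbol. Marker lists covered atrial, ventricular, conduction, cardiomyocyte, endothelial (general, arterial, and venous with endocardial and lymphatic), fibroblast, smooth muscle, mesothelial, macrophage, adipocyte, liver and lung cells. Alternatives were other pseudocounts, filters, scalings, library weights, robust fits, a replicate block, Myl7 or Xist class covariates, subsets of hearts and each heart left out. The fibroblast relation and the repeats of the counts without overlap were added after seeing the data.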

Additional observations from a re-analysis of the deposited data

Results flagged for a closer look

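Tbx5 in CCl4 replicate 4 lay at 9.57 RPKM, far from the other 5 CCl4 hearts at 1.89 to 2.48 RPKM. Its gap to the nearest of them was 0.924 of the range of the group, above Dixon's critical value of 0.625 for 6 samples. Of the 20 groups examined (10 members in 2 treatment groups) this was the only one past that value, and chance gives about 1 in 20. The heart also held 306.6 RPKM of Myl7, the highest of the CCl4 hearts, and Control replicate 1, the heart with the most Myl7, had a similar Tbx5 level of 10.2 RPKM. Without this heart the log2 fold change of Tbx5 was -0.78 (limma adjusted p = 0.328).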

How the results depend on the processing

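Of 252 alternative values for the members, 215 kept direction and side of the threshold, 36 changed sign and 1 passed the threshold. Gata4, Tbx20, Mef2c and Nr2f2 kept their sign in every setting run on them. With array weights 1 member passed (Tbx20), as did 2249 genes in all (770 higher, 1479 lower), 7 other cardiac factors and 6 targets. Without the 2 hearts richest in atrial markers 1 gene passed. Leaving out 1 heart at a time gave 0 to 47 genes (31 without Control replicate 1, 47 without CCl4 replicate 1) and 0 to 1 other factors (Tbx3 without Control replicate 1). The cause was not tested.

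Signs changed as follows, on the log2 scale and with no member called. Nkx2-5 lay at 0.0383 with median-of-ratios scaling, 0.0351 with quantile normalization, 0.0687 with mitochondrial genes left out of the scaling, 0.037 with array weights, 0.0525 with the Myl7 class and 0.0538 in hearts under 100 RPKM of Myl7 (each heart left out: -0.0866 to 0.0189). Tbx5 lay at 0.0159 with log2 Myl7 and 0.119 with the Myl7 class as a covariate. Hand2 lay at -0.0596 with TPM scaling and -0.0259 with array weights (-0.0539 to 0.0857). Irx4 lay at -0.0425 with TPM scaling, -0.0238 with array weights, -0.115 with log2 Myl7, -0.113 with the Myl7 class, -0.132 in hearts under 100 RPKM and -0.0677 without the 2 richest hearts (-0.108 to 0.101). Hey2 lay at -0.0256 with TPM scaling (-0.0315 to 0.0638), and Nr2f1 at 0.0361 with mitochondrial genes left out against -0.000475 with no filter. The median of all genes lay at -0.102 with TPM scaling and 0.0216 with mitochondrial genes left out, and the median of the members at -0.0425 and 0.0977.

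With a replicate block 0 members and 0 genes passed, and 1060 genes had an unadjusted p under 0.05. Same-numbered hearts had correlations of deviations from -0.474 to 0.232. Control replicates 2 and 5 were closest to the CCl4 heart of their own number, and the other Control hearts were not. These correlations also carry differences in tissue content, so they cannot decide whether same-numbered hearts were paired. The numbers were used as sample names only. Low levels limit Nr2f1, Tbx20 and Hey2: at a mean of at least 2 RPKM, Tbx20 and Hey2 were not tested.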

Other observations

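A right atrial marker differed among the hearts rich in Myl7, a pattern noticed in the values and not tested. Bmp10, a growth factor of right atrial muscle in the adult mouse, lay at 11.95 RPKM in Control replicate 1, 9.11 in Control replicate 3 and 12.2 in CCl4 replicate 4. It lay at 0.953 RPKM in Control replicate 2 and 0.0208 RPKM in Control replicate 5, although Myl7 was at 140.7 and 178.7 RPKM there. Control replicate 4 had 1.11 RPKM of Bmp10 at 9.47 RPKM of Myl7.

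Nppa was not a marker of the Myl7 split alone. It lay at 9552 RPKM in CCl4 replicate 3 and 6675 RPKM in CCl4 replicate 6, whose Myl7 was 28.7 and 0.811 RPKM, and at 2041 RPKM in Control replicate 2. Tcf21, a transcription factor of cardiac fibroblasts, lay at 9.17 RPKM in CCl4 replicate 3 and at 1.52 to 3.72 RPKM in the other 11 hearts.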
